A study of Homo sapiens with 24 samples.

Results

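RNA levels of 10 genes that encode enzymes of the handling and cleavage of cysteine conjugates were followed in human macrophage-like cells exposed to the cysteine conjugate DCVC. The genes were taken from the table of normalized counts by their symbols, and all 10 were found there, out of 38735 named genes. They were KYAT1, KYAT3, GOT1, GOT2, ABAT, GGT1, GGT5, DPEP2, CNDP2 and ACY1, and each symbol stood on 1 entry. The cells were THP-1, an established human monocytic leukaemia line, and every group had first been turned into macrophage-like cells by 24 h with 100 nM of the phorbol ester PMA. DCVC_LPS cells received 5 µM S-(1,2-dichlorovinyl)-L-cysteine (DCVC), a metabolite of the solvent trichloroethylene, for 24 h, then fresh medium, then 100 ng/mL of the bacterial cell wall component lipopolysaccharide (LPS) for 4 h. DCVC cells received DCVC alone, LPS cells received LPS alone, and Control cells received medium only. Each of the 4 groups held 6 libraries with the replicate letters A to F, 24 in all. The series asks, by its title, how DCVC bears on the transcription that LPS induces in these cells, and the libraries are all from 1 cell line.

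Cysteine conjugates are intermediates of the mercapturate pathway. A glutathione S-transferase couples a compound to glutathione, gamma-glutamyltransferases remove the glutamyl residue at the cell surface, and dipeptidases remove the glycine, which leaves the cysteine conjugate. From there an N-acetyltransferase can make a mercapturate for excretion, aminoacylases can return the mercapturate to the cysteine conjugate, and beta-lyases can cleave the carbon-sulfur bond, which releases pyruvate, ammonia and a sulfur-containing fragment. Several beta-lyases are transaminases that carry pyridoxal phosphate and do this as a side reaction. The pathway is known above all from the kidney proximal tubule, where cleavage of DCVC gives a reactive product. DCVC itself stands after the steps of gamma-glutamyltransferase and dipeptidase.

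The values are normalized counts, that is, reads per gene divided by a factor per library. Each DCVC_LPS library held between 20352552 and 26232127 reads in named genes, each DCVC library between 18478618 and 22015664, each LPS library between 19985317 and 30107819, and each Control library between 19675823 and 27986524. The sums of normalized counts differed between groups, at 21831254 ± 235112 in DCVC_LPS, 17774466 ± 305501 in DCVC, 29427331 ± 839114 in LPS and 21135356 ± 563705 in Control (mean ± SD, n = 6 each). Counts of called genes, and the main changes of the 10 genes, are therefore also given with every library scaled to the same sum, here called equal totals. That scaling moved the median log2 change of all 13900 tested genes to 0.21 in DCVC minus Control, -0.51 in LPS minus Control, 0.35 in DCVC_LPS minus LPS and -0.33 in DCVC_LPS minus DCVC. On the deposited scale these medians were -0.03, -0.03, -0.07 and -0.03. Of 10 macrophage markers, 10 reached a mean of 10 in DCVC_LPS, DCVC and LPS, and 9 did in Control, where CD68 stayed below it. Their summed level lay between 42387 and 46105 in DCVC_LPS, between 52763 and 60288 in DCVC, between 39869 and 41873 in LPS, and between 68516 and 82721 in Control. This marker sum moved with both treatments, and its part in the changes below was not tested. Kidney proximal tubule markers summed to at most 55.9 in any library, and T cell markers to at most 2.84. TNF, a target of LPS, rose by 8.38 ± 0.35 (log2, SE) in LPS against Control, and GCLM, a gene of glutathione synthesis, rose by 3.18 ± 0.10 in DCVC against Control. In bulk RNA, a change in the number of cells that carry a transcript and a change in transcript per cell cannot be told apart. Nothing in the labels says that the 6 libraries of a group are separate cultures. The p-values therefore speak of the spread among these samples alone, and that spread may be technical.

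Of the 10 genes, 8 had an entry among the RefSeq promoter windows of GRCh38.p14, each from 250 bases before to 50 after a transcription start, with 16 windows in all. DPEP2 and GGT5 had none. The windows were searched on both strands for the core of the antioxidant response element, TGACNNNGC, the element through which NRF2 acts at genes such as GCLM. It stood in 5 of the 16 windows, which belonged to GOT2, ABAT, GGT1 and KYAT1, and in 13.3% of all 35116 promoter windows. The 4 stretches shown are all the matches found, and the capitals mark the core. Whether a match bears on a change with DCVC was not tested. A match is a description of letters and not of a bound site.
GOT2, chr16:58734338-58734398, minus strand, core from 56 bases upstream of the start: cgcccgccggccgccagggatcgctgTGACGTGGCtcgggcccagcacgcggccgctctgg
ABAT, chr16:8712798-8712858, plus strand, core from 13 bases upstream of the start: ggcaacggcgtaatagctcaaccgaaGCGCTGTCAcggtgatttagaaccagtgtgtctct
GGT1, chr22:24603138-24603198, plus strand, core from 29 bases upstream of the start: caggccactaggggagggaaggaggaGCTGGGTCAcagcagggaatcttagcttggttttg
KYAT1, chr9:128845701-128845750, minus strand, core from base 27 of a transcript with an internal start: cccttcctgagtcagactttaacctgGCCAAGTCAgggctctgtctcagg
In ABAT the same core also lay 125 bases upstream of a second annotated start, which is the fifth window. In GOT2 the core read along the gene, and in ABAT, GGT1 and KYAT1 it read on the opposite strand. The other windows of KYAT1, ABAT and GGT1 held no core. KYAT3, GOT1, ACY1 and CNDP2 had no such letters in any of their windows. The NF-kB motif stood in 1 of the 16 windows, in GOT2, and in 11.3% of all promoter windows.

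Set per length of exon, the order of the 10 genes was led by the surface enzyme GGT1. The length was that of all annotated exons merged, 4434 bases for GGT1 and 11848 for CNDP2, and the order depends on it. Undivided, CNDP2 averaged above GGT1 in Control (4129 against 2844) and in LPS (5190 against 2315). It averaged below GGT1 in DCVC (3164 against 3866) and in DCVC_LPS (3139 against 4236). In normalized counts per kb of merged exons, GGT1 averaged 955 in DCVC_LPS, 872 in DCVC, 522 in LPS and 641 in Control. CNDP2, GOT2 and KYAT3 followed, with 265, 328 and 165 per kb in DCVC_LPS and 348, 284 and 179 per kb in Control. GOT1, ABAT, DPEP2, KYAT1 and ACY1 lay below KYAT3 in each group, and GGT5 was lowest in all 4. GOT2 stood above CNDP2 in DCVC_LPS and in DCVC, and CNDP2 stood above GOT2 in LPS and in Control. Among neighbours in the order, the library ranges of GGT1 and of the gene after it overlapped in LPS, but not in the other groups. Those of KYAT1 and DPEP2 overlapped in all 4 groups. Between KYAT3 and the gene after it, the ranges lay apart in all 4 groups.

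**Figure D1:**
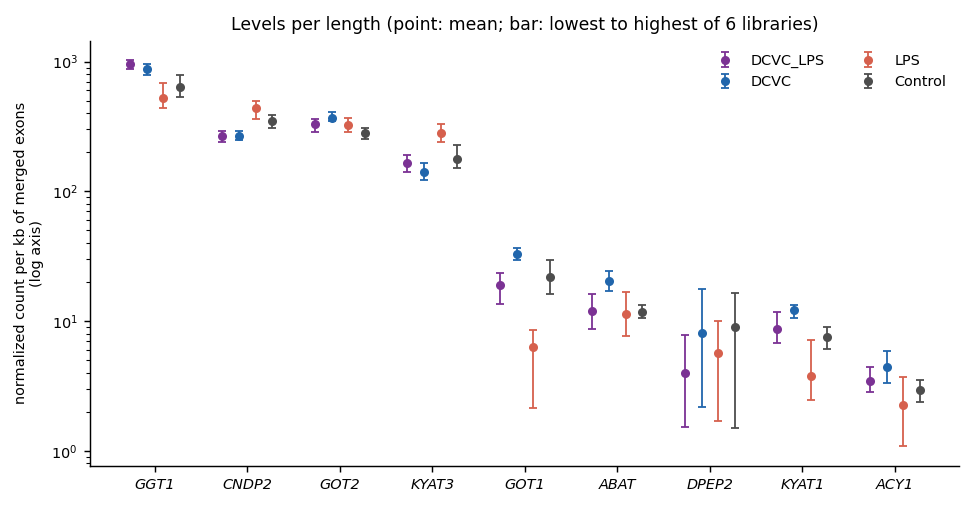
Normalized counts per kb of merged exon length on a log axis for 9 of the 10 genes in DCVC_LPS, DCVC, LPS and Control cells, with points for the mean and bars from the lowest to the highest of 6 libraries. GGT1 led in each group, at 955, 872, 522 and 641, and GOT1 stood at 6.34 per kb in LPS cells, below ABAT at 11.4.

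The beta-lyase gene KYAT1 (chromosome 9, 128832942 to 128882494, minus strand) encodes kynurenine aminotransferase 1, also called glutamine transaminase K, the best known cytosolic cysteine conjugate beta-lyase. Its normalized counts ran from 24.7 over a median of 30.98 to 42.9 in DCVC_LPS and from 38.1 over 44.7 to 48.0 in DCVC. In LPS they ran from 8.92 over 11.5 to 25.9, and in Control from 22.1 over 27.0 to 32.6. All 6 DCVC libraries lay above all 6 Control libraries, while LPS and Control overlapped through LPS library C alone. The change was 0.68 ± 0.20 (log2, SE; adjusted p = 0.00464) in DCVC against Control and -1.02 ± 0.20 (adjusted p = 4.53e-05) in LPS against Control. Between DCVC_LPS and LPS it was 1.23 ± 0.20, a 2.32-fold higher mean (adjusted p = 5.09e-06), with 4 of 6 libraries above every LPS library. Under equal totals these 3 changes were 0.93, -1.47 and 1.62, all called. KYAT1 was a low gene, with 209 reads summed over DCVC_LPS, 295 over DCVC, 64 over LPS and 179 over Control.

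KYAT3 (chromosome 1, 88935773 to 88992953, minus strand), the related kynurenine aminotransferase 3, which also carries the name cysteine conjugate beta-lyase 2, went the other way in each comparison that it passed. It ran from 324 over a median of 374 to 441 normalized counts in DCVC_LPS and from 283 over 325 to 383 in DCVC. LPS libraries ran from 550.2 over 639.7 to 761, and in Control from 349.9 over 401 to 528. The LPS libraries lay above all libraries of the other 3 groups, and DCVC and Control overlapped. KYAT3 fell by 0.34 ± 0.11 in DCVC against Control (adjusted p = 0.00892) on the deposited scale, whereas under equal totals the change was -0.09 with adjusted p = 0.458. It rose by 0.66 ± 0.11 in LPS against Control (adjusted p = 4.42e-06), but under equal totals the change was 0.19 with adjusted p = 0.0968. In DCVC_LPS against LPS it fell by 0.78 ± 0.11 (adjusted p = 5.91e-07), and by 0.35 under equal totals (adjusted p = 0.00407). KYAT3 shares 20.3% of its exon bases with RBMXL1 on the same strand, a gene whose mean was 271 in DCVC_LPS, 230.0 in DCVC, 620.0 in LPS and 222 in Control, so both genes were highest in LPS. Whether reads of the shared exon moved between these genes was not tested.

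GOT1 (chromosome 10, 99396870 to 99431569, minus strand) encodes the cytosolic aspartate aminotransferase of the malate-aspartate shuttle. It ran from 45.2 over a median of 66.0 to 79.4 normalized counts in DCVC_LPS and from 99.8 over 108 to 124 in DCVC. LPS libraries ran from 7.16 over 24.95 to 28.7, and in Control from 54.8 over 70.7 to 99.5. The 6 LPS libraries lay below every library of the other 3 groups, and the 6 DCVC libraries above every other library. GOT1 fell by 1.83 ± 0.24 in LPS against Control (adjusted p = 1.63e-07), a 3.44-fold lower mean, and was higher in DCVC_LPS than in LPS, by 1.63 ± 0.24 (adjusted p = 1.28e-06). Its rise in DCVC against Control was smaller, 0.60 ± 0.24 with adjusted p = 0.0319, and this call was lost without letter B, C or E and without any of 5 single libraries, at adjusted p from 0.0506 to 0.0992. Under equal totals GOT1 changed by -2.28 in LPS against Control, 2.04 in DCVC_LPS against LPS and 0.85 in DCVC against Control, all called. A gene without a named entry, AL391684.1, covers 19.3% of GOT1 exon bases on the opposite strand, and the strand setting of the counting is not given in the sources used here.

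GOT2 (chromosome 16, 58707131 to 58734357, minus strand), the mitochondrial aspartate aminotransferase, varied much less. Its range was 1082 to 1356 normalized counts with a median of 1264 in DCVC_LPS, and 1311 to 1538 with a median of 1395 in DCVC. In LPS it was 1074 to 1397 with a median of 1216, and in Control 954 to 1161 with a median of 1052. DCVC libraries lay above all Control libraries, and the other groups overlapped. GOT2 rose by 0.39 ± 0.07 in DCVC against Control (adjusted p = 4.43e-05), and by 0.64 under equal totals. In LPS against Control its direction depended on the scale, with 0.19 ± 0.07 (adjusted p = 0.0172) as deposited and -0.29 (adjusted p = 0.00116) under equal totals. In DCVC_LPS against LPS the change was 0.02 ± 0.07 with adjusted p = 0.79 on the deposited scale, and 0.45 with adjusted p = 7.66e-06 under equal totals.

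ABAT (chromosome 16, 8674565 to 8784575, plus strand) encodes the pyridoxal phosphate enzyme that degrades the transmitter GABA. It ran from 84.9 over a median of 109.8 to 157 normalized counts in DCVC_LPS and from 167 over 196 to 238 in DCVC. In LPS it ran from 75.3 over 108 to 163, and in Control from 102 over 113 to 129. The DCVC libraries stood above all other 18 libraries, and the remaining 3 groups overlapped each other. ABAT rose by 0.79 ± 0.16 in DCVC against Control, a 1.75-fold higher mean (adjusted p = 0.000137), and was lower by the same size, -0.79 ± 0.16, in DCVC_LPS against DCVC (adjusted p = 0.000117). For LPS against Control the libraries of letters A and B gave -0.64, those of C and D gave 0.01 and those of E and F gave 0.37, around a pooled value of -0.09 ± 0.16 with adjusted p = 0.628. Under equal totals ABAT was among the genes that fell in LPS against Control, at -0.56 (adjusted p = 0.00358), and its changes in DCVC against Control and in DCVC_LPS against DCVC were 1.04 and -1.09, both called.

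**Figure D2:**
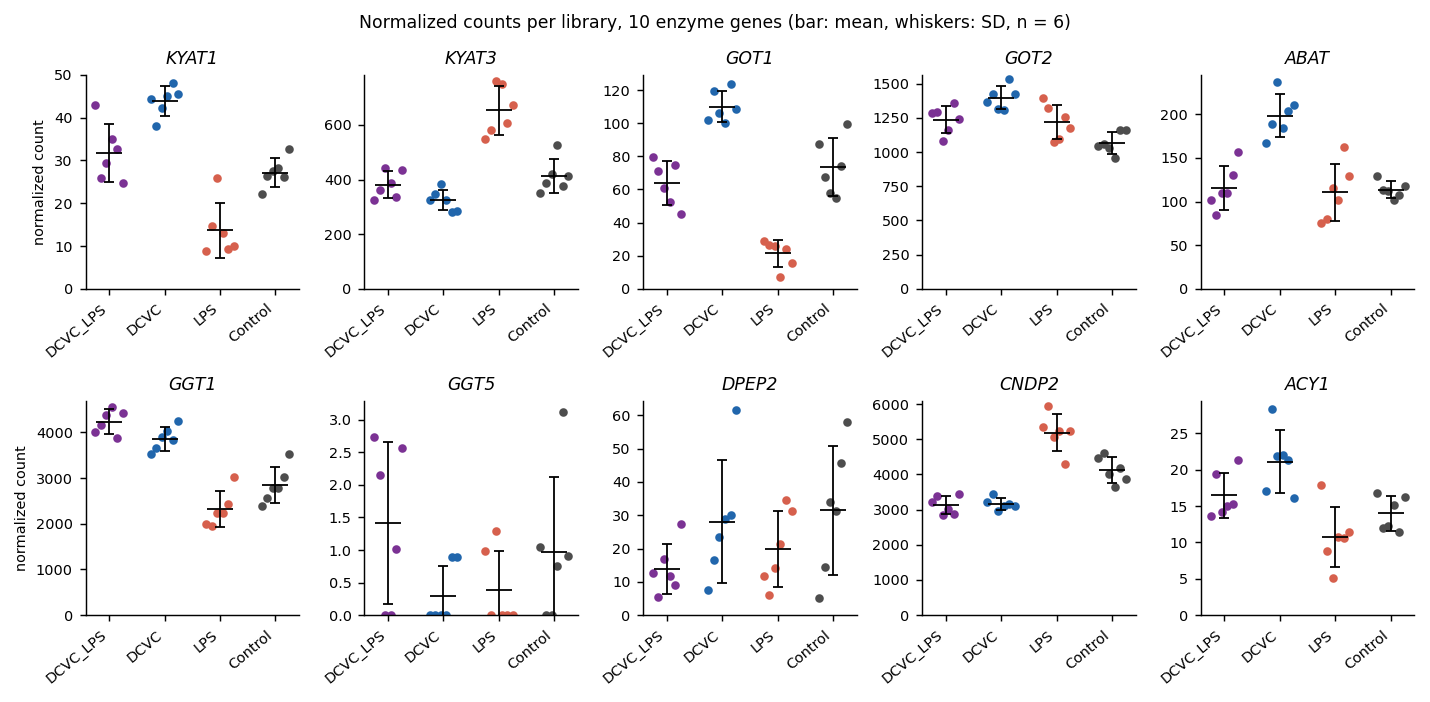
Normalized counts of the 10 genes, 1 panel each, with 1 point per library in DCVC_LPS, DCVC, LPS and Control, a bar for the mean and whiskers for the SD (n = 6; whiskers of GGT5 are trimmed at 0). KYAT1 and GOT1 were lowest in LPS, with medians of 11.5 and 24.95, while KYAT3 and CNDP2 were highest there on this deposited scale, with medians of 639.7 and 5243 (under equal totals KYAT3 did not pass against Control and CNDP2 was lower than in Control).

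Among the enzymes of the earlier steps, GGT1 (chromosome 22, 24583750 to 24629005, plus strand) encodes gamma-glutamyltransferase 1, which removes the glutamyl residue from glutathione conjugates outside the cell. It ran from 3873 over a median of 4275 to 4561 normalized counts in DCVC_LPS and from 3521 over 3865 to 4250.3 in DCVC. LPS libraries ran from 1943 over 2239 to 3030.1, and in Control from 2386 over 2784 to 3520.0. Both groups with DCVC lay above all libraries without it. GGT1 rose by 0.45 ± 0.09 in DCVC against Control (adjusted p = 0.000179), fell by 0.30 ± 0.09 in LPS against Control (adjusted p = 0.00466), and was 1.83-fold higher in DCVC_LPS than in LPS (0.89 ± 0.09, adjusted p = 5.92e-09). Within letters A and B, C and D, and E and F this last difference was 1.05, 1.00 and 0.61. Under equal totals the 3 changes were 0.70, -0.78 and 1.32, all called. GGT1 has near-identical copies in the genome, so its level is uncertain where reads match more than 1 of them. The copies' own counts were low, with means of at most 3.89 in any group for GGT2 and GGT3P. GGT1 also shares 6.9% of its exon bases with SNRPD3, whose means lay between 1220.0 and 1250.0 in the 4 groups.

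GGT5 (chromosome 22, 24219654 to 24245142, minus strand), a gamma-glutamyltransferase known for the cleavage of leukotriene C4, was close to absent from these libraries and was not tested across genes. It had 9 reads summed over the 6 DCVC_LPS libraries, 2 over DCVC, 2 over LPS and 6 over Control, with at most 3 reads in any library. These are levels at which 0 reads and 3 reads cannot be told apart by counting. An exact permutation test of its normalized counts gave p = 0.0736 for DCVC_LPS against DCVC, the smallest of 4 comparisons, with an adjusted p of 0.238. No difference of GGT5 was detectable at this depth.

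CNDP2 (chromosome 18, 74495816 to 74523454, plus strand) encodes the cytosolic dipeptidase that cleaves cysteinylglycine. It ran from 2853 over a median of 3127 to 3446 normalized counts in DCVC_LPS and from 2954 over 3135 to 3442 in DCVC. LPS libraries ran from 4301 over 5243 to 5937, and in Control from 3632 over 4100.2 to 4613. All 12 libraries with DCVC lay below all 12 libraries without it, and LPS and Control overlapped. CNDP2 fell by 0.38 ± 0.07 in DCVC against Control (adjusted p = 6.1e-05), and under equal totals this was -0.13 with adjusted p = 0.0912. In LPS against Control the direction turned with the scale, from 0.33 ± 0.07 as deposited (adjusted p = 0.000175) to -0.15 under equal totals (adjusted p = 0.0458). In DCVC_LPS against LPS CNDP2 fell by 0.72 ± 0.07 (adjusted p = 2.05e-09), and by 0.29 under equal totals (adjusted p = 0.000405).

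DPEP2 (chromosome 16, 67987394 to 68000586, minus strand) encodes a membrane dipeptidase known for the hydrolysis of leukotriene D4. It passed no comparison on the deposited scale. It ran from 5.38 over a median of 12.2 to 27.3 normalized counts in DCVC_LPS and from 7.67 over 26.2 to 61.5 in DCVC. In LPS it ran from 5.91 over 17.9 to 34.7, and in Control from 5.25 over 32.6 to 57.9. Its libraries overlapped in all comparisons. Over all 4 groups, the 8 libraries of letters A and B had a median of 9.78, those of C and D 22.5 and those of E and F 33.0. With the letter as a block, DCVC_LPS was lower than DCVC by 0.88 ± 0.31 (adjusted p = 0.0154), against ± 0.51 and adjusted p = 0.143 without the block, and under equal totals the change was -1.16 (adjusted p = 0.0495). DPEP1, the kidney dipeptidase of the same family, had a median of 14.2 in the libraries of A and B, 53.9 in those of C and D and 84.2 in those of E and F.

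**Figure D3:**
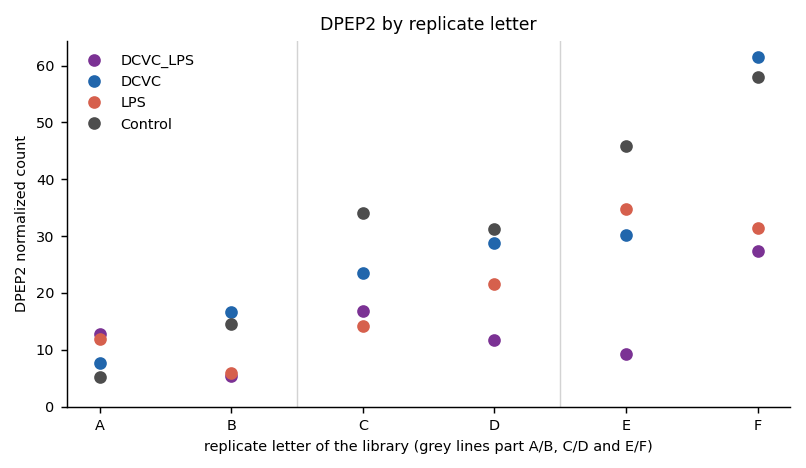
Normalized counts of DPEP2 by replicate letter, with 1 point per library for DCVC_LPS, DCVC, LPS and Control and grey vertical lines that part A/B, C/D and E/F. The 8 libraries of letters A and B lay between 5.25 and 16.6, those of C and D between 11.7 and 34.1, and those of E and F between 9.19 and 61.5.

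ACY1 (chromosome 3, 51983278 to 51989202, plus strand) encodes aminoacylase 1, which removes the acetyl group from N-acetylated amino acids. It ran from 13.7 over a median of 15.2 to 21.3 normalized counts in DCVC_LPS and from 16.1 over 21.6 to 28.3 in DCVC. In LPS it ran from 5.17 over 10.7 to 17.8, and in Control from 11.5 over 13.8 to 16.8. Each of these 4 groups overlapped the others. ACY1 rose by 0.55 ± 0.21 in DCVC against Control (adjusted p = 0.0294) and by 0.63 ± 0.21 in DCVC_LPS against LPS (adjusted p = 0.0111). The first call was lost without letter B, C, D or E and without any of 5 single libraries, at adjusted p from 0.0505 to 0.137. The second was lost with DESeq2 on the recovered reads and within each letter pair alone, where it was 0.34 in A and B, 0.88 in C and D and 0.67 in E and F, at adjusted p from 0.0574 to 0.491. The change in LPS against Control was -0.41 ± 0.21 with adjusted p = 0.0834, and under equal totals it was -0.84 with adjusted p = 0.000916. The changes of the first 2 comparisons were 0.79 and 1.01 under equal totals, both called. The readthrough gene ABHD14A-ACY1 covers 78.2% of ACY1 exon bases on the same strand and had a mean of at most 1.19 in any group. Reads in the shared exons cannot be given to 1 of them by position, so the level of ACY1 is uncertain.

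In DCVC against Control, the genes of cysteine conjugate handling mostly stood higher. Of the 9 tested genes, 6 rose, namely KYAT1, GOT1, GOT2, ABAT, GGT1 and ACY1, by 0.39 to 0.79 on the log2 scale. With no filter on low values 4 rose, as GOT1 and ACY1 lost the call. CNDP2 and KYAT3 fell on the deposited scale and with edgeR on the recovered reads, at -0.34 and -0.31 (adjusted p = 0.000156 and 0.0194). Neither passed under equal totals, and DPEP2, at -0.08 ± 0.51, did not pass. Among all tested genes 27.5% rose and 32.2% fell on the deposited scale, and 46.1% rose and 20.1% fell under equal totals, where the 6 genes still rose and none fell. The median change of the 9 genes was 0.45 as deposited and 0.70 under equal totals, against -0.03 and 0.21 over all genes. Within letter pairs the 6 risen genes kept a positive change in A and B, in C and D and in E and F. KYAT1 and ACY1 were called within none of these pairs, at adjusted p from 0.0823 to 0.4. GOT1 was called within A and B alone, and GGT1 was not called within E and F. ABAT and GOT2 were called within each pair.

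In LPS against Control, the transaminases parted. GOT1 fell to a 3.44-fold and KYAT1 to a 1.98-fold lower mean on the deposited scale, where KYAT3 stood 1.59-fold higher (under equal totals KYAT3 did not pass). On the deposited scale 3 of the 9 genes rose, KYAT3, CNDP2 and GOT2, of which CNDP2 and GOT2 changed sign under equal totals, and 3 fell, GOT1, KYAT1 and GGT1. That compares with 37.8% raised and 40.6% lowered among all tested genes. Under equal totals none rose and 7 fell, against 22.4% raised and 59.5% lowered among all genes. The falls of GOT1, KYAT1 and GGT1 were called on both scales and had the same sign within each letter pair, with GOT1 at -1.44 in A and B, -1.95 in C and D and -2.09 in E and F. KYAT1 was not called within C and D (-0.56, adjusted p = 0.109), nor GGT1 within E and F (-0.265, adjusted p = 0.0995). The call of GOT2 as deposited was lost without letter A or B and without LPS library A or Control library D, at adjusted p from 0.0507 to 0.0984. GOT2 was called within A and B alone (0.37), with 0.13 in C and D (adjusted p = 0.0819) and 0.07 in E and F (adjusted p = 0.523). CNDP2 was not called within E and F (0.24, adjusted p = 0.106), and KYAT3 was called within each pair.

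In DCVC_LPS against LPS, 4 of the 9 genes rose, GOT1, KYAT1, GGT1 and ACY1, and 2 fell, KYAT3 and CNDP2. On the deposited scale 33.3% of all tested genes rose and 39.4% fell. Under equal totals 6 rose, with ABAT (0.51) and GOT2 (0.45) added, and KYAT3 and CNDP2 still fell, against 54.5% raised and 21.9% lowered among all genes. The largest differences were those of GOT1 (1.63) and KYAT1 (1.23), both with the opposite sign of their changes in LPS against Control. Within the same letter pairs the difference of GOT1 was 1.41, 1.96 and 1.53, and that of KYAT1 was 1.46, 0.76 and 1.47. These 2 comparisons share the LPS libraries, so their values stand side by side and no relation between them was computed.

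In DCVC_LPS against DCVC, ABAT, GOT1, GOT2 and KYAT1 fell, by 0.79, 0.80, 0.18 and 0.48, and none rose. All tested genes gave 29.9% raised and 32.2% lowered. Under equal totals 7 fell and none rose, against 16.3% raised and 52.7% lowered among all genes. GGT1 (0.13 ± 0.09, adjusted p = 0.218) and CNDP2 (-0.01 ± 0.07, adjusted p = 0.878) did not pass on the deposited scale. With the replicate letter as a block, 1 gene rose and 5 fell, since KYAT3 (0.23 ± 0.08, adjusted p = 0.0133) and DPEP2 joined the called genes. Over all tested genes the block also added calls, with 4666 raised and 5078 lowered, against 4160 and 4475 without it. When a letter or a library of these 2 groups was left out, the call of KYAT1 was lost in 12 settings and that of GOT2 in 9. ABAT was called within each letter pair and KYAT1 within none. GOT1 was called within A and B and within E and F, and GOT2 within C and D alone. GGT1 rose within A and B (0.19, adjusted p = 0.0208) and within C and D (0.17, adjusted p = 0.00826). KYAT3 rose within E and F, and DPEP2 fell within C and D and within E and F.

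The interaction asks whether DCVC changed a gene by a different amount with LPS than without it. It was positive for GOT1 (1.03 ± 0.34, adjusted p = 0.0147) and GGT1 (0.43 ± 0.13, adjusted p = 0.00851). It was negative for ABAT (-0.71 ± 0.22, adjusted p = 0.0119), GOT2 (-0.37 ± 0.10, adjusted p = 0.00397), CNDP2 (-0.34 ± 0.10, adjusted p = 0.00703) and KYAT3 (-0.44 ± 0.15, adjusted p = 0.0209). Among all genes 22% had a positive and 23.7% a negative interaction on the deposited scale, and 33.1% and 16.1% under equal totals. Under equal totals the calls were GOT1 (1.19), GGT1 (0.61) and KYAT1 (0.70, adjusted p = 0.0364), and none was negative.

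**Figure D4:**
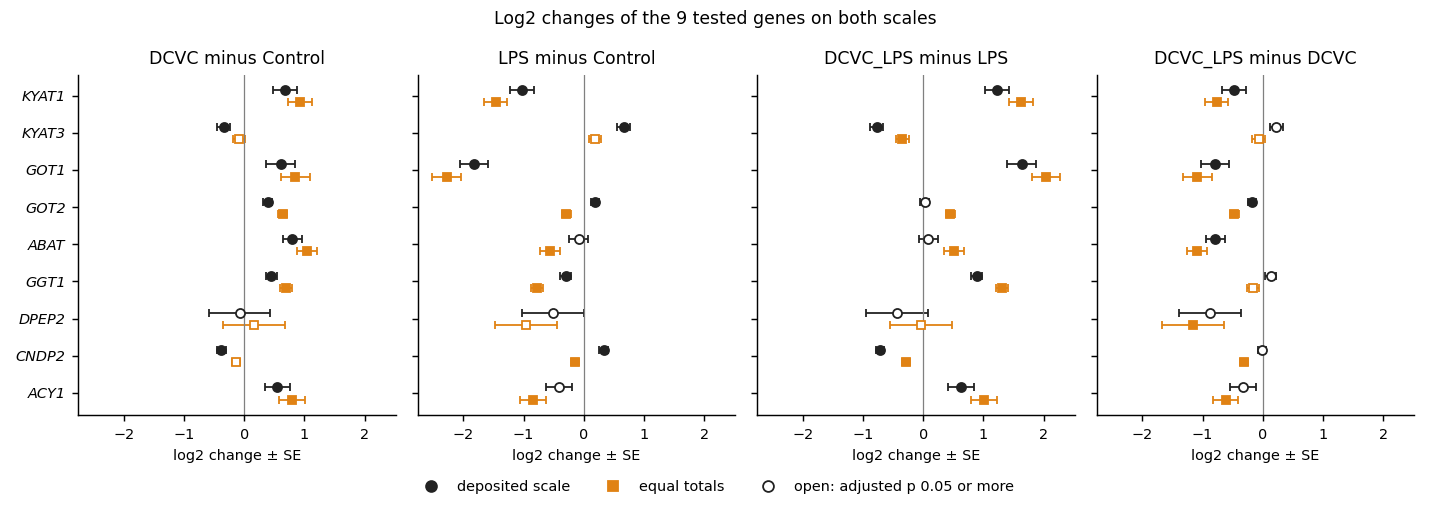
Log2 changes with their SE for the 9 tested genes in DCVC minus Control, LPS minus Control, DCVC_LPS minus LPS and DCVC_LPS minus DCVC, on the deposited scale (circles) and under equal totals (squares), with open symbols for an adjusted p of 0.05 or more. GOT1 and KYAT1 lay at -1.83 and -1.02 in LPS minus Control and at 1.63 and 1.23 in DCVC_LPS minus LPS on the deposited scale.

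Ratios of reads between a pair of genes within a library do not depend on how libraries are scaled, so 3 pairs of related steps were set against each other, a choice made after the values were seen. For every 100 reads of KYAT3 there was a median of 8.09 reads of KYAT1 in DCVC_LPS, 13.8 in DCVC, 1.69 in LPS and 6.67 in Control. The log2 ratio of KYAT1 to KYAT3 was higher by 1.04 ± 0.13 in DCVC than in Control, lower by 1.75 ± 0.21 in LPS than in Control (-1.75) and higher by 2.08 ± 0.27 in DCVC_LPS than in LPS. In each of these 3 comparisons the 6 libraries of the first group lay outside the range of the second. Each gave p = 0.00216 in a two-sided exact permutation test, the smallest that 6 against 6 can give (adjusted p = 0.00325 over 12 tests). With the letters kept as pairs, an exact sign-flip test gave p = 0.0312 for each, the smallest it can give. That test takes the letters A to F as independent, although A/B, C/D and E/F deviated alike. None of these p-values, and none for the pairs that follow, accounts for the choice of the gene pairs after the values were seen. The ratio was also lower by 0.72 ± 0.21 (-0.72) in DCVC_LPS than in DCVC, with exact permutation p = 0.00866 and adjusted p = 0.0115.

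Cytosolic GOT1 gave a median of 5.49 reads per 100 reads of mitochondrial GOT2 in DCVC_LPS, 7.83 in DCVC, 1.97 in LPS and 6.38 in Control. The log2 ratio differed by -2.08 ± 0.30 in LPS against Control and by 1.67 ± 0.31 in DCVC_LPS against LPS, each without overlap and with exact permutation p = 0.00216. In DCVC against Control it differed by 0.22 ± 0.11 with exact permutation p = 0.0628 (adjusted p = 0.0685), higher in 4 of 6 letters. The 2 aspartate aminotransferases thus changed by unequal amounts with LPS, and no unequal change with DCVC alone passed the test.

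GGT1 gave a median of 131 reads per 100 reads of CNDP2 in DCVC_LPS, 126 in DCVC, 43.4 in LPS and 70.9 in Control. The ratio was above 100 in all 12 libraries with DCVC and below 100 in all 12 libraries without it. That separation follows from the levels above, where GGT1 was higher and CNDP2 lower in all 12 libraries with DCVC than in those without. The log2 ratio was higher by 0.83 ± 0.13 in DCVC than in Control and by 1.61 ± 0.14 in DCVC_LPS than in LPS, each with exact permutation p = 0.00216. In DCVC_LPS against DCVC it was 0.15 ± 0.09 with exact permutation p = 0.121. With LPS alone the ratio was lower in 6 of 6 letters, by -0.63 ± 0.18 (exact permutation p = 0.013, adjusted p = 0.0156), and without letter C or D the adjusted p was 0.0571.

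**Figure D5:**
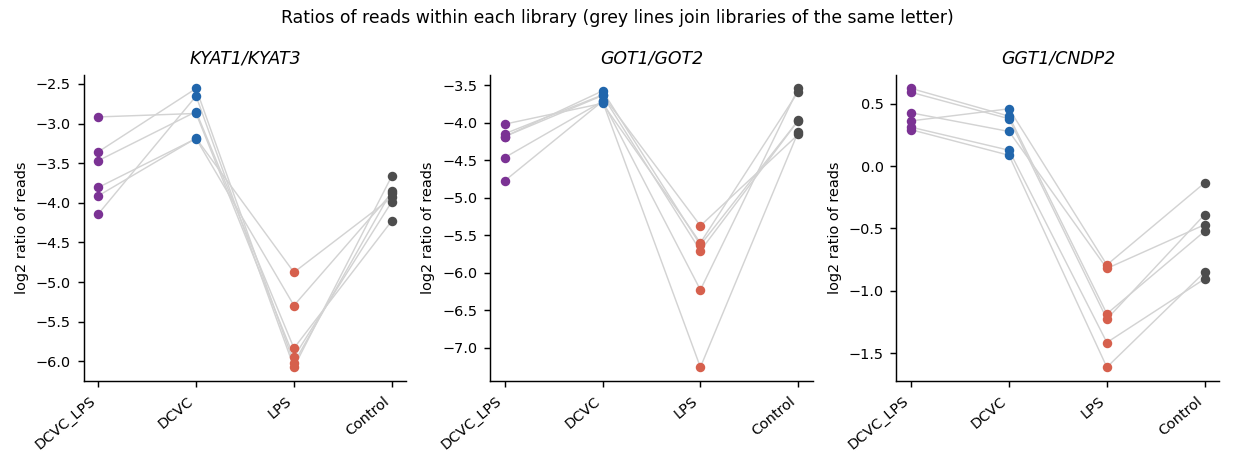
Log2 ratios of reads within each library for KYAT1 to KYAT3, GOT1 to GOT2 and GGT1 to CNDP2 in DCVC_LPS, DCVC, LPS and Control, with grey lines that join libraries of the same letter. The LPS libraries are lowest in the first 2 panels, at medians of -5.89 and -5.67, and the 12 libraries with DCVC lie above 0 in the third.

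Over the 24 libraries, the genes whose log2 levels resembled a member most were named with Pearson's r as a description, since all libraries share the 4 groups and their scaling. For KYAT1 these were WDR31 (r = 0.929) and GON7 (0.928), and for KYAT3 CTSS (0.968) and WASHC4 (0.966). For GOT1 they were SIKE1 (0.965) and ALG6 (0.962), and for CNDP2 TMEM131 (0.964) and UCK2 (0.959). GGT1 went most closely with UROD (0.958) and PIGK (0.955). The nearest genes of GOT2 were CDIP1 (0.884) and MRPS9 (0.881), of ABAT SDS (0.824) and BACH2 (0.81), of ACY1 NUBPL (0.835) and LNX2 (0.805), and of DPEP2 STMN1 and SPNS3 (0.806 each). Among the members themselves, KYAT3 and GOT1 ran most strongly against each other (r = -0.913), followed by CNDP2 and GGT1 (-0.907), and KYAT1 ran with GOT1 (0.834).

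Other genes of the pathway were counted by list, and each count reads against the share of all tested genes. That share was 27.5% raised and 32.2% lowered in DCVC against Control, 37.8% and 40.6% in LPS against Control, and 33.3% and 39.4% in DCVC_LPS against LPS. Under equal totals it was 46.1% and 20.1%, 22.4% and 59.5%, and 54.5% and 21.9%. The lists are short, and no list was tested against these shares. Of 13 tested glutathione S-transferases, which make the conjugates, 6 rose and 4 fell in DCVC against Control, with a median of 0.51. GSTM3 rose by 2.79 ± 0.16, MGST1 by 1.53 ± 0.14 and GSTM4 by 1.11 ± 0.14. LPS against Control gave 1 that rose and 10 that fell, with GSTM4 at -1.38, GSTCD at -0.82 and GSTK1 at -0.71. For DCVC_LPS against LPS 7 rose and 1 fell, GSTM3 by 2.22, GSTM4 by 1.98 and MGST1 by 1.82 among those that rose. Under equal totals these counts were 7 and 2, 0 and 12, and 10 and 0.

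Of 10 tested genes of the gamma-glutamyl cycle, 4 rose and 3 fell in DCVC against Control. GCLM, which encodes a subunit of glutamate-cysteine ligase, rose by 3.18 and GSR, which reduces oxidized glutathione, also rose (1.497 ± 0.085), whereas OPLAH, which opens 5-oxoproline, fell by 1.30. LPS against Control gave 5 that rose and 3 that fell, with CHAC1, which degrades glutathione, at 4.26. With DCVC_LPS against LPS 3 rose and 4 fell, with GCLM at 3.47, GSR at 2.73 and OPLAH at -1.24. Under equal totals the counts were 6 and 3, 3 and 6, and 6 and 2.

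Of 4 other dipeptidases and aminopeptidases tested, none rose and 2 fell in DCVC against Control, LAP3 by 0.67 and ANPEP by 0.65. LAP3, a leucine aminopeptidase that also splits cysteinylglycine, rose by 1.59 in LPS against Control, where PEPD fell by 0.39, and fell by 1.69 in DCVC_LPS against LPS, where DPEP1 fell by 2.16. The acetyltransferase NAT8, which makes mercapturates in the kidney, had 0 reads in all 24 libraries. In the list of acetylation and deacetylation, NAT8, NAT8B, ACY3 and ASPA stayed below the mean needed for the test. Its 2 tested genes, ABHD14A and ABHD14B, are neighbours of ACY1, so its counts do not describe that step. ABHD14A rose by 0.90 in DCVC against Control, and ABHD14A and ABHD14B fell by 0.76 and 0.66 in LPS against Control. Both rose in DCVC_LPS against LPS, by 1.31 and 0.66. The dipeptidase list under equal totals gave 0 and 2, 1 and 2, and 1 and 2, and the neighbours of ACY1 gave 2 and 0, 0 and 2, and 2 and 0.

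Among 9 tested pyridoxal phosphate transaminases and sulfur amino acid lyases outside the 10 genes, 1 rose and 3 fell in DCVC against Control, with CBS at -1.37, BCAT1 at -0.81 and GPT2 at -0.75. CBS makes cystathionine, BCAT1 transaminates branched-chain amino acids and GPT2 alanine. In LPS against Control 1 rose and 6 fell, with BCAT1 at 1.71, GPT2 at -2.11 and CBS at -1.35. For DCVC_LPS against LPS 1 rose and 4 fell, with the cystathionine lyase CTH at 1.78, CBS at -0.77 and BCAT1 at -2.005. Under equal totals these counts were 1 and 3, 1 and 7, and 5 and 2.

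Of 4 tested amino acid carriers, 2 rose and 2 fell in DCVC against Control. SLC7A5, the light chain of the large neutral amino acid carrier, fell by 1.71, and its heavy chain SLC3A2 rose by 0.67. With LPS against Control 1 rose and 2 fell, with SLC7A8 at -3.07 and SLC43A1 at -2.21, and SLC7A5 at 0.335 as deposited but -0.14 under equal totals (adjusted p = 0.217). In DCVC_LPS against LPS 2 rose and 1 fell, with SLC7A8 at 1.70, SLC3A2 at 1.39 and SLC7A5 at -1.61. Under equal totals the counts were 2 and 2, 0 and 3, and 3 and 1. Of 5 tested genes of S-oxidation and thiol methylation, 2 rose and 1 fell in DCVC against Control, with METTL7B at 1.90, FMO4 at 1.79 and METTL7A at -0.95. LPS against Control gave 1 that rose and 4 that fell, with METTL7A at -2.14, METTL7B at -2.04 and FMO5 at -1.86. For DCVC_LPS against LPS 3 rose and 1 fell, with METTL7B at 2.66, FMO4 at 2.06 and FMO5 at 1.23. These counts under equal totals were 2 and 1, 1 and 4, and 4 and 0.

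Of 8 tested partners of GOT1, GOT2 and ABAT in the malate-aspartate shuttle and the GABA shunt, none rose and 4 fell in DCVC against Control, with MDH1 at -0.55, SLC25A22 at -0.41 and AKR7A2 at -0.23. SLC25A22 (-0.16) and AKR7A2 (0.02) were not called under equal totals. LPS against Control gave 3 that rose and 3 that fell, with SLC25A22 at 1.21, ALDH5A1 at -1.90 and AKR7A2 at -1.05. For DCVC_LPS against LPS 2 rose and 5 fell, with SLC25A22 at -1.30, SLC25A12 at -1.22 and SLC25A13 at -0.72, the last not called under equal totals (adjusted p = 0.0815). Under equal totals the counts were 1 and 1, 2 and 6, and 4 and 2. The p-values behind these lists were adjusted over all 13900 tested genes.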

How the data were processed

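Poly-A RNA libraries of 24 samples were analysed from 1 deposited table. Its values are a signal per gene and library that the authors made by dividing reads by a factor per library, as read from the values: 100.0% of values above 0 were whole multiples of 1 read within 0.1 read. Per the submitters' processing notes, the tools were DESeq2 1.24.0, R 3.6.0, STAR, featureCounts 1.6.1, MultiQC 0.9 and FastQC 0.11.5, and the genome build was hg38, with no role or order stated. Which annotation was counted, whether strand was used and how multiply mapped reads were treated is not given in the sources used here. Genes with shared exons, such as ACY1 and KYAT3, are uncertain for that reason.

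Of 58381 entries, 19595 (33.56%) carry no gene name and 0.99% of the values, and stayed out. Values were added up for 51 symbols that stood on 2 entries. Tests covered 13900 genes whose mean was 10 or more, as log2(value + 1) in R 4.3.3 by limma 3.58.1, empirical Bayes with trend, with all 24 libraries in 1 fit and 1 mean per group. The pseudocount of 1 understates changes of low genes. P-values were adjusted by Benjamini-Hochberg over all 13900 genes, and genes under 0.05 are called raised or lowered. A member with a mean below 10 (GGT5) got an exact permutation test over libraries. Ratios were tested by exact permutation over 924 arrangements, with SE from the spread of both groups. These arrangements do not keep the letters as pairs. An exact sign-flip test with the letters as pairs can give no p below 0.0312, and it takes the letters A to F as independent. It gave that value for every ratio change with an adjusted p under 0.05. For GGT5 the floor was 3 reads.

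The members and lists were chosen with earlier results of these data known. All 10 members are named, with up to 3 genes of smallest adjusted p per list in each of 3 comparisons, and the 2 genes of highest Pearson's r per member among genes with a mean of at least 50. GENCODE 29 (GRCh38) supplied positions and exon lengths, and it holds 36574 of the 38735 names. Promoter windows come from RefSeq. The result of 1 further gene list is not reported here. The script was tested on simulated data with 200 changed genes.

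Whether replicate letters pair the samples was checked on deviations from group means over 11410 genes. Libraries of the same letter correlated at 0.235 to 0.662, with 36 of 36 pairs over 0.1. Those of the other letter of A/B, C/D or E/F correlated at 0.048 to 0.596, with 35 of 36 over 0.1. Libraries from different letter pairs gave -0.53 to 0.093, with 0 of 144 over 0.1. Letters thus pair the samples, but A/B, C/D and E/F also go together, so the letters are not independent of each other. What a letter stands for is given by no label. Alternatives were edgeR 4.0.16 and DESeq2 1.42.0 on the recovered reads, equal totals, pseudocounts of 0.5 and 8, no filter, a mean of at least 50, only the groups compared, a replicate block, the letter pair as a term, each letter pair alone, and leaving out each letter or library. Ratios with 1 letter left out, and their tests with the letters as pairs, were added after seeing the data.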

Additional observations from a re-analysis of the deposited data

Results flagged for a closer look

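KYAT1 in LPS cells had 1 library, C, at 25.87 normalized counts, with the nearest other library at 14.79. The gap was 0.654 of the range, above Dixon's critical value for 6 libraries. In 36 gene and group sets checked, 1 was marked in this way, and chance marks about 1 in 20. KYAT1 without that library is given with the dependence on single libraries.

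For 6 genes the DCVC change with LPS differed from that without it, by an interaction term fitted with limma. GOT1 had 1.031 and GGT1 0.433. The negative ones were ABAT with -0.708, KYAT3 with -0.438, GOT2 with -0.366 and CNDP2 with -0.342. The 4 negative ones were not called under equal totals, at adjusted p from 0.0644 for ABAT to 0.168 for CNDP2.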

How the results depend on the processing

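Over 45 single-gene results and 1479 alternative values, 88 lost the call and 28 gained it. In 37 the sign was opposite to the main value. Of these, 2 belonged to called values, both under equal totals in LPS minus Control, at -0.15 for CNDP2 and -0.29 for GOT2. The other 35 belonged to 9 results that were not called, and were not called there either. The count of called members in DCVC minus Control was 8 in the main result, 5 within letters A and B, 5 within C and D and 4 within E and F, where fewer samples entered. With no filter on low values it was 6, as GOT1 and ACY1 lost the call. In LPS minus Control it was 6, and 3 within E and F. In DCVC_LPS minus DCVC it was 4, and 7 under equal totals, 6 with the replicate block, and from 2 to 6 with 1 letter or library left out. With no filter it was 3 there, as KYAT1 lost the call. It was 2 without letter B, E or F, without DCVC_LPS library C, and without DCVC library E or F. The interaction count was 6, and 3 under equal totals and 1 within E and F. Over all 13900 tested genes, DCVC minus Control gave 3820 raised and 4478 lowered in the main result. Within A and B this was 3496 and 4383, within C and D 3924 and 4734, and within E and F 2294 and 3301. LPS minus Control gave 5253 and 5639, and 4577 and 4776 within E and F. DCVC_LPS minus DCVC gave 4160 and 4475, and 4666 and 5078 with the block. The interaction gave 3053 and 3297, and 1281 and 1578 within E and F. The replicate block changed no other call of a member than those of KYAT3 and DPEP2 in DCVC_LPS minus DCVC.

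Without letter C the ABAT interaction had adjusted p = 0.0679, and without letter A, B or C the KYAT3 interaction had 0.0546 to 0.0587. KYAT1 gained an interaction without letter C or LPS library C (0.00971 to 0.0285). In DCVC_LPS minus DCVC, KYAT1 was lost without letter B, D, E or F, DCVC_LPS library B, C or F, or any DCVC library but B (0.0509 to 0.123). GOT2 was lost there without letter B, C, E or F, DCVC_LPS library C or D, or DCVC library B, E or F (0.0511 to 0.0911). KYAT3 was gained there without letter A, DCVC_LPS library A or E, or DCVC library C (0.0343 to 0.0483), and DPEP2 without letter A (0.0352). ACY1 in LPS minus Control was called without letter A or LPS library A (0.0159 to 0.0405). The causes were not tested. Of 84 alternative ratio values 81 kept their call; GGT1/CNDP2 in LPS minus Control lost it without C or D, and GOT1/GOT2 in DCVC minus Control gained it without F (adjusted p = 0.0433). Reads of KYAT1, ACY1, DPEP2 and GGT5 were few, which limits their precision.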

Other observations

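The genes below were picked after their values were seen. CYP3A5, a cytochrome P450 that oxidizes drugs, was below the mean of 10 needed for the test. It had 131 reads summed over the DCVC_LPS libraries, 0 over DCVC, 64 over LPS and 0 over Control, with at least 7 reads in every library that had received LPS.

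AADAT, a further kynurenine aminotransferase below that mean, had a median of 5.30 normalized counts in DCVC_LPS, 4.87 in DCVC, 16.2 in LPS and 10.6 in Control. It rested on 35 reads in DCVC_LPS, 31 in DCVC, 73 in LPS and 64 in Control, and the libraries with DCVC overlapped those without it.

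GCLC, the catalytic partner of GCLM, had its lowest and highest library at 4127 and 6362 normalized counts in DCVC_LPS, at 1948 and 2392 in DCVC, at 1395 and 1798 in LPS, and at 1536 and 5132 in Control. With limma its change was -0.20 ± 0.20 in DCVC against Control (adjusted p = 0.385) and 1.75 ± 0.20 in DCVC_LPS against LPS (adjusted p = 2.06e-08). The interaction was 1.96 ± 0.28 (adjusted p = 4.05e-06).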
